A study of Rattus norvegicus with 37 samples.

Results

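Of 24613 genes counted in rat liver, 51 were counted mainly in the SCI + Exercise set of libraries and far less in the SCI + In-Cage Activity set, although both sets hold liver RNA of uninjured rats and of rats with the same spinal cord contusion (SCI, spinal cord injury). The genes were chosen by their measured levels. A gene was taken if its mean raw count over the 37 libraries was 10 or more and if its lowest level among the 22 Exercise libraries was above 2 times its highest level among the 15 In-Cage libraries. Levels are given in CPM, the reads of a gene relative to all reads counted in its library, scaled with TMM factors that correct for composition differences between libraries. The rule took 51 of the 12363 genes with that mean count (0.413%), and the mirrored rule, with In-Cage above Exercise, took 0 genes (0%). The gap between the sets therefore chose these genes and is described here without a test. Groups within each set were not compared by the rule, and differences between them were tested. The rule does leave out a gene that is low in any single Exercise library or high in any single In-Cage library. It thereby limits the spread within each set.

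All rats were female Sprague Dawley animals, an outbred strain, with a stated age of 8 to 9 weeks. This was not their age at collection, as livers were taken weeks after injury. In the In-Cage set, uninjured rats lived in standard cages (No SCI + Standard, 5 rats), and rats with a 25 g-cm contusion of the spinal cord at T2 lived in tiny cages that restrict movement (CONT SCI + Tiny, 5 rats) or in large ones (CONT SCI + Large, 5 rats). The Exercise set, per the study's methods and the sample titles all in tiny cages, comprised uninjured rats (No SCI, 4 rats), rats with the same contusion (CONT SCI, 4 rats), rats with a complete T2 transection (TX SCI, 4 rats), and rats with the contusion that swam (CONT SCI + SWIM, 5 rats) or walked in shallow water (CONT SCI + SWW, 5 rats). Per the labels, livers were taken 11.5 weeks after contusion and 8.5 weeks after transection, so the kind of injury and the time since injury cannot be told apart in TX SCI, and exercise ran for 8 weeks from day 10. The study's methods give a later start, longer training and a later collection for the exercised rats, so exercise and time since injury cannot be told apart either. Uninjured rats were taken at the time equivalent to the contused ones, and rats were housed in pairs of the same group, with no label for which rats shared a cage. Between sets the cage of the uninjured rats differed. The labels give no date or sequencing run, so any such difference between the sets cannot be told apart from the set itself.

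The liver makes most plasma proteins, handles lipids, glucose and bile acids, and holds resident macrophages (Kupffer cells) beside its hepatocytes. After spinal cord injury it is known for an early inflammatory response and for lipid accumulation in the chronic phase, and housing and exercise are the conditions varied here. The table names genes by Ensembl identifiers, and 0 of these matched the gene table at hand, so the function of each of the 51 genes, their sequences, and the marker genes of hepatocytes and other liver cells were not analysed here. In whole liver, fewer cells of a type and less RNA per cell cannot be told apart.

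Libraries held between 20066978 and 25130252 reads on genes in the In-Cage set and between 26190364 and 36761953 in the Exercise set, without overlap. TMM factors ranged from 0.809 to 0.997 in the In-Cage set and from 0.961 to 1.16 in the Exercise set. When every library was thinned to the same number of reads, the rule took 41 genes, of which 39 were among the 51. The mean count limit of 10 was applied to the thinned counts, so a gene near that limit can drop out without a change in its gap.

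The 51 genes together summed to between 543 and 1099 CPM in the Exercise libraries (median 755) and to between 36.3 and 135.2 CPM in the In-Cage libraries (median 63.6). Within the Exercise set, the group sums were 680 ± 114 CPM for No SCI rats, 649 ± 70.4 for CONT SCI and 849 ± 139 for TX SCI (SD, n = 4 each). They were 973 ± 111 CPM for CONT SCI + SWIM and 758 ± 75.8 for CONT SCI + SWW (SD, n = 5 each). The In-Cage sums were 50.0 ± 15.4 CPM for No SCI + Standard rats, 71.5 ± 18.1 for CONT SCI + Tiny and 80.8 ± 33.1 for CONT SCI + Large (SD, n = 5 each). Without CONT SCI + Large replicate 4, the highest of them, the last was 67.2 ± 15.0 CPM (SD, n = 4), lower than that of CONT SCI + Tiny. The swimmers had the highest mean sum and the uninjured rats in standard cages the lowest. A single gene, ENSRNOG00000057347, made up much of the differences between Exercise groups. Its means were 60.9 CPM in No SCI, 88.8 in CONT SCI, 180 in TX SCI, 283 in CONT SCI + SWIM and 152 in CONT SCI + SWW. Contused rats in tiny cages without exercise were present in both sets, and their mean sums stood 9.07-fold apart (CONT SCI over CONT SCI + Tiny). For uninjured rats, whose cages differed, the mean sums stood 13.6-fold apart (No SCI over No SCI + Standard).

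**Figure D1:**
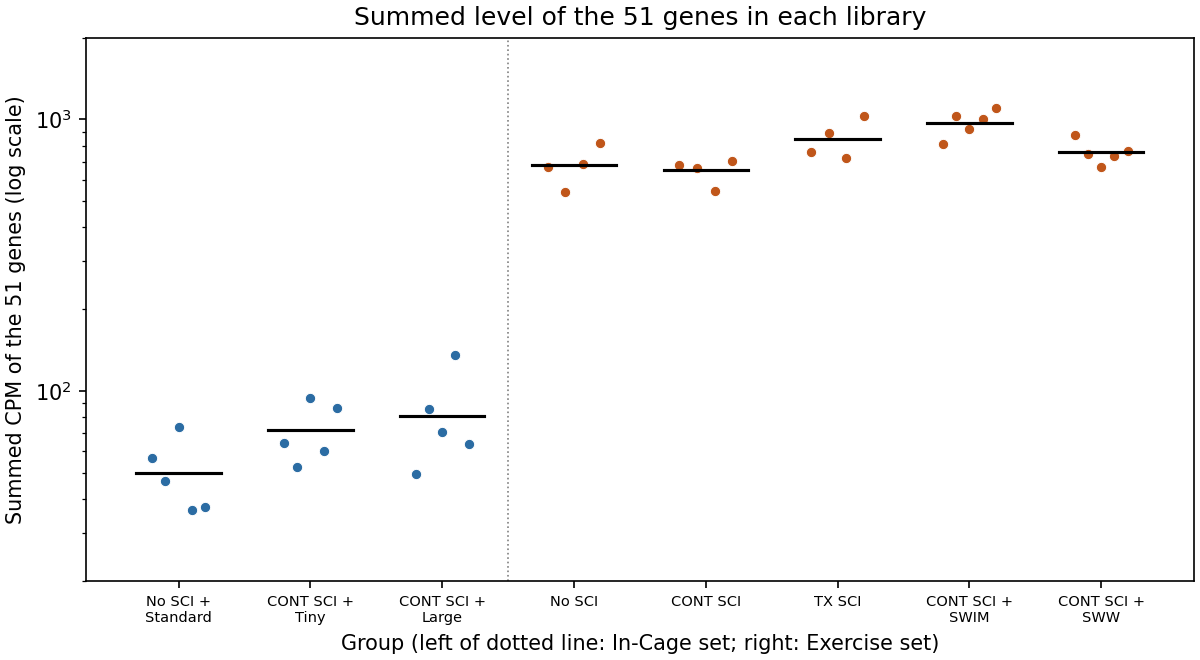
Summed CPM of the 51 genes (vertical axis, log scale) in each of the 37 libraries by group (horizontal axis), with In-Cage groups in blue and Exercise groups in orange; each point is 1 library and each black line a group mean. The In-Cage libraries lie between 36.3 and 135.2 CPM and the Exercise libraries between 543 and 1099.

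A few genes carried most of this sum. The highest of them held 20.1% of the summed Exercise level and the 5 highest held 59.5%. Exercise means ran from 0.497 to 158.8 CPM, with a median of 4.09 CPM against 11.5 CPM over all genes with a mean count of 10 or more. Of the 51 genes, 14 had an Exercise mean of 10 CPM or more, 32 lay from 1 to 10 CPM and 5 were under 1 CPM. Each of the 51 was counted in all 22 Exercise libraries. The ratio of highest to lowest Exercise CPM within a gene ranged from 1.67 to 18.1 (median 3.01), and the widest was that of ENSRNOG00000004757, whose counts went from 2 to 48. In a fit over the Exercise groups, the biological coefficient of variation of the 51 genes, the spread between rats of a group beyond counting error, was 27.2% at the median (15.6% to 56.4%), against 20.8% over the 13059 genes in that fit.

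The size of the gap varied among the genes. The lowest Exercise CPM was over 10 times the highest In-Cage CPM in 9 genes, 5 to 10 times in 10, 3 to 5 times in 11 and 2 to 3 times in 21. Just inside the limit was ENSRNOG00000000918, with a ratio of 2.01 (29.4 CPM in the lowest Exercise and 14.7 CPM in the highest In-Cage library), and just outside it was ENSRNOG00000011771, with a ratio of 1.95 (0.210 and 0.107 CPM). Without CONT SCI + Large replicate 4 the rule took 76 genes, the largest count among the 37 rules that left out 1 library. That library, with 135.2 CPM, had the highest summed level of the In-Cage set and was the In-Cage maximum of 25 of the 51 genes, so it set the limit for those genes.

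**Figure D2:**
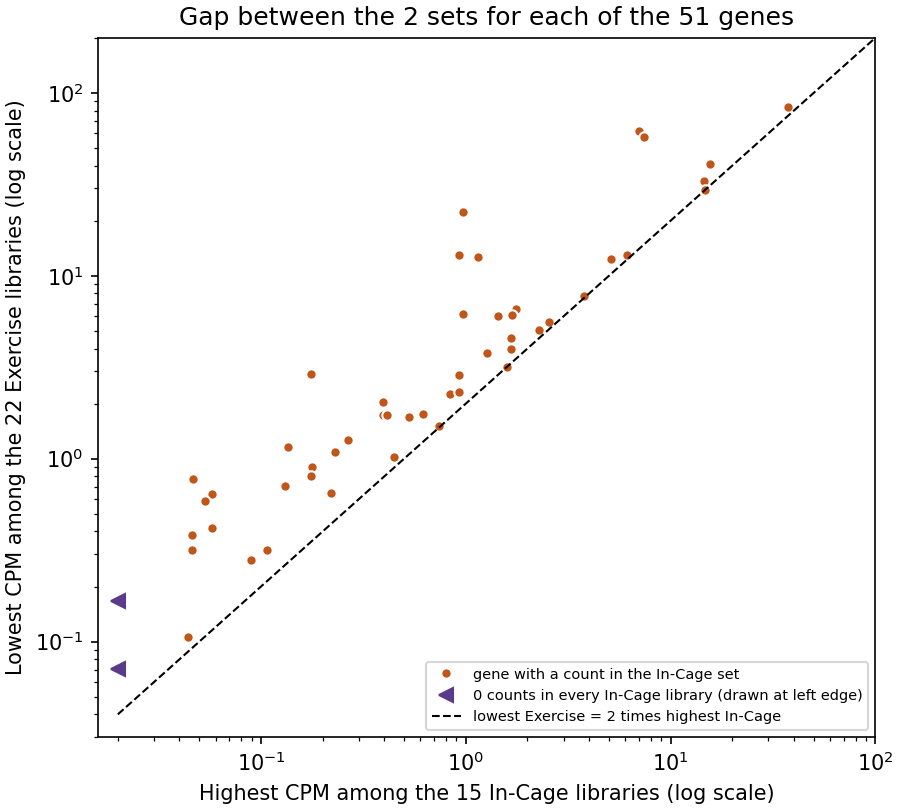
Lowest CPM among the 22 Exercise libraries (vertical axis, log scale) against highest CPM among the 15 In-Cage libraries (horizontal axis, log scale); each orange point is 1 gene, the purple triangles at the left edge are genes with 0 counts in every In-Cage library, and the dashed line marks the ratio of 2 used by the rule. Of the 51 genes, 21 lie at a ratio of 2 to 3, close above the line.

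By their mean level the genes fell on either side of 5%, a limit set after the levels had been seen. In 26 genes, called near-absent from here on, the In-Cage mean was under 5% of the Exercise mean. In the other 25 it was 5.36% to 25.6% (median 11.8%). Of all genes with a mean count of 10 or more, 36 met the 5% limit and 0 met it in the opposite direction. The Exercise means of the near-absent genes ranged from 0.497 to 158.8 CPM (median 2.23), and those of the other 25 from 0.708 to 106.6 CPM (median 7.15). Summed over the other 25, TX SCI was highest at 419 ± 30.9 CPM (SD, n = 4). CONT SCI + SWIM was at 416 ± 35.5 CPM (SD, n = 5).

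ENSRNOG00000012877 and ENSRNOG00000004757 had 0 counts in all 15 In-Cage libraries. In the Exercise libraries, ENSRNOG00000012877 was counted 5 to 34 times per library. Its CPM was 0.5003, 0.454, 0.289 and 0.648 in No SCI, 0.334, 0.392, 0.318 and 0.814 in CONT SCI, 0.334, 0.185, 0.268 and 0.350 in TX SCI, 0.167, 0.567, 0.445, 0.673 and 0.776 in CONT SCI + SWIM, and 0.870, 0.928, 0.696, 0.385 and 0.548 in CONT SCI + SWW. Every walker was above every rat with a transection, while all other pairs of these groups overlapped. Against a floor of 3 counts over the whole In-Cage set (0.00941 CPM), the Exercise mean of 0.497 ± 0.223 CPM (SD, n = 22) was at least 52.8-fold higher. For ENSRNOG00000004757, with 0.551 ± 0.352 CPM (SD, n = 22), it was at least 58.6-fold higher. A further 9 genes had 1 to 10 counts in the whole In-Cage set, and 26 of the 51 were counted in every In-Cage library.

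Among genes with higher counts, ENSRNOG00000039876 had the widest gap, with at least 723 counts in each Exercise library and at most 22 in any In-Cage library. It stood at 30.7, 27.7, 34.3 and 37.8 CPM in No SCI, 37.5, 29.2, 28.9 and 30.003 in CONT SCI, 31.4, 22.4, 24.8 and 31.6 in TX SCI, 29.5, 49.5, 37.5, 47.2 and 46.4 in CONT SCI + SWIM, and 33.9, 33.3, 25.7, 35.01 and 30.9 in CONT SCI + SWW. Among In-Cage rats, those of No SCI + Standard were at 0.0578, 0, 0.171, 0.0531 and 0.0495 CPM, those of CONT SCI + Tiny at 0.184, 0.0446, 0.520, 0.0890 and 0.699, and those of CONT SCI + Large at 0.138, 0.415, 0.420, 0.966 and 0.0454. Its Exercise mean of 33.4 ± 7.06 CPM (SD, n = 22) was 130.1 times its In-Cage mean, and the 3 highest values were those of swimmers.

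ENSRNOG00000019987 was near-absent in the In-Cage set as well, with an Exercise mean of 105.4 ± 29.5 CPM (SD, n = 22). Its CPM was 115, 62.2, 118 and 155 in No SCI, 102, 83.5, 68.2 and 105 in CONT SCI, 95.4, 135.1, 86.5 and 152.1 in TX SCI, 107.4, 80.8, 161, 125 and 139 in CONT SCI + SWIM, and 96.9, 82.8, 67.5, 72.5 and 109 in CONT SCI + SWW. Among In-Cage rats, No SCI + Standard had 0.925, 1.05, 0.939, 0.531 and 0.644 CPM, CONT SCI + Tiny had 0.919, 0.938, 3.12, 0.979 and 2.10, and CONT SCI + Large had 0.922, 3.13, 0.934, 7.02 and 0.862. All Exercise groups overlapped for this gene. By contrast, ENSRNOG00000012808, of nearly the same Exercise mean (106.6 ± 16.6 CPM, SD, n = 22), kept 21.5% of that level in the In-Cage set, where it ranged from 12.6 to 37.3 CPM (median 23.2) against 84.1 to 147.6 CPM (median 104.8) in the Exercise set. ENSRNOG00000019987 was counted in all 15 In-Cage libraries too, at 1.58% of its Exercise mean. Abundant genes among the 51 thus differed in the share kept in the In-Cage set.

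The counts left in the In-Cage set were not spread evenly over its libraries. Summed over the 26 near-absent genes, the level in an In-Cage library was 0.431% to 5.10% of the Exercise mean (median 0.920%). The group means were 0.685 ± 0.250% for No SCI + Standard, 1.33 ± 0.649% for CONT SCI + Tiny and 2.03 ± 1.85% for CONT SCI + Large (SD, n = 5 each). CONT SCI + Large replicate 4 was highest, at 5.10% (95% Poisson interval 4.64 to 5.59, counting error only), from 458 reads. Next came CONT SCI + Large replicate 2 at 2.42% (2.10 to 2.77), CONT SCI + Tiny replicate 3 at 2.19% (1.89 to 2.51) and CONT SCI + Tiny replicate 5 at 1.85% (1.56 to 2.19). The other 11 libraries, among them all 5 of uninjured rats, lay at or under 1.09%. In replicate 4 of CONT SCI + Large, 12 of the near-absent genes had their In-Cage maximum. Single near-absent genes were there at 0% to 15.6% of their own Exercise mean. The most abundant were at 4.67% for ENSRNOG00000057347, 6.66% for ENSRNOG00000019987 and 2.89% for ENSRNOG00000039876, and the first 2 weigh most in the sum. Without that library the mean of CONT SCI + Large was 1.26%, lower than the 1.33% of CONT SCI + Tiny.

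**Figure D3:**
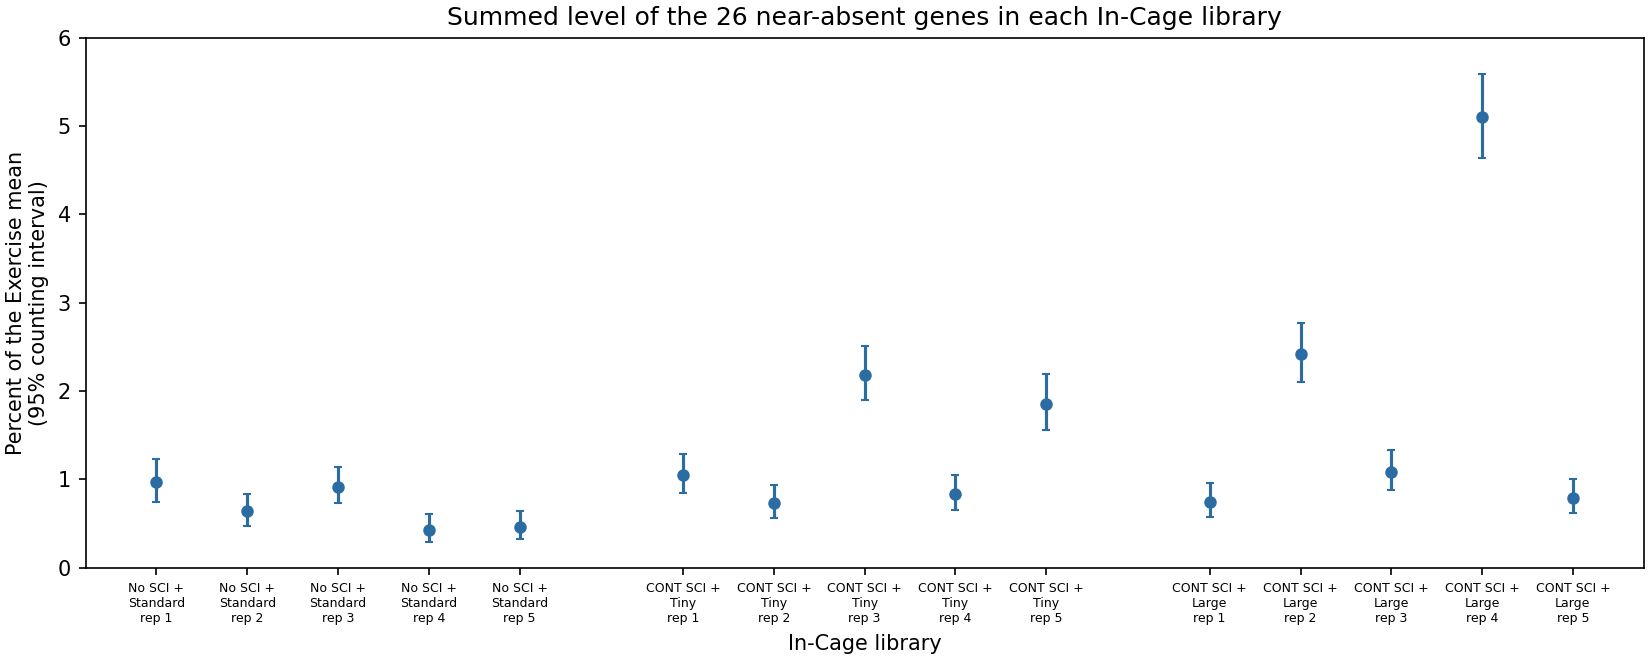
Summed level of the 26 near-absent genes in each In-Cage library (horizontal axis, by group) as a percent of their summed Exercise mean (vertical axis); bars are 95% Poisson intervals of the counts. CONT SCI + Large replicate 4 stands at 5.10%, 3 further libraries of injured rats lie between 1.85% and 2.42%, and the rest lie at or under 1.09%.

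Within the In-Cage set, the genes that could be tested mostly had higher means in injured than in uninjured rats, with 1 gene past the test. Between 17 and 21 of the 51 genes passed the filter on low counts in a comparison. A gene can pass through the group in which it is higher, so the counts over these genes are a description. In CONT SCI + Tiny against No SCI + Standard, 1 of 17 genes was called higher and 0 lower by edgeR's quasi-likelihood test at a Benjamini-Hochberg adjusted p under 0.05, where 12.5% of all genes tested were called in either direction. At an unadjusted p under 0.05 there were 8 of 17, all higher, against 34.3% of all genes, and 13 of 17 fold changes were positive, with a median log2 fold change of 0.44 against -0.00 over all genes. DESeq2 called 3.

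The gene called there was ENSRNOG00000008296. The No SCI + Standard rats were at 1.73, 1.19, 1.54, 0.796 and 0.743 CPM, the CONT SCI + Tiny rats at 2.99, 2.95, 5.11, 1.65 and 3.12, and the CONT SCI + Large rats at 1.29, 4.15, 2.57, 5.05 and 1.497. Of the tiny-cage rats, 4 were above every uninjured rat and replicate 4 was not. The log2 fold change of CONT SCI + Tiny over No SCI + Standard was 1.40 (standard error 0.31, edgeR adjusted p = 0.0263). The call was kept in 5 of the 10 fits that left out 1 library, and over all alternatives the adjusted p ranged from 0.00107 to 0.0722. For CONT SCI + Large the log2 fold change was 1.28 (standard error 0.39, edgeR adjusted p = 0.0854). Its Exercise levels were far higher, from 12.4 to 24.8 CPM, and its Exercise groups overlapped.

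CONT SCI + Large against No SCI + Standard gave 0 calls among 18 genes by edgeR (0.0337% of all genes called). At an unadjusted p under 0.05 by edgeR there were 9, all higher (29.4% of all genes). DESeq2 called 4 of the 18, and 1409 of all 11852 genes. Here 16 of 18 fold changes were positive, and the median was 0.62 against -0.02 over all genes. Without CONT SCI + Large replicate 1, whose summed level was the lowest of its group (49.3 CPM), edgeR called 8 of 19 genes. In that fit 2020 of all 11960 genes were called, against 4 of 11852 with every library. CONT SCI + Large against CONT SCI + Tiny gave 0 calls among 21 genes by edgeR and 0 by DESeq2 (0% of all genes by edgeR), with 1 at an unadjusted p under 0.05 (2.9% of all genes). Of these 21 fold changes 15 were positive, with a median of 0.20, and without CONT SCI + Large replicate 4 the direction turned, to 9 positive and a median of -0.07. These comparisons share libraries with each other. Of the 49 genes with any In-Cage count, 36 had their highest In-Cage mean in CONT SCI + Large, 10 in CONT SCI + Tiny and 3 in No SCI + Standard, and 35 had their lowest in No SCI + Standard. Without CONT SCI + Large replicate 4 this order changed, with 26 highest in CONT SCI + Tiny, 18 in CONT SCI + Large and 5 in No SCI + Standard, while 33 were still lowest in No SCI + Standard. The libraries with the highest summed near-absent level were all from injured rats, as given above, and their part in these differences was not tested.

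Within the Exercise set all 51 genes entered every test. The mean over swimmers was the highest of the 5 groups for 21 genes, that of TX SCI for 12, of CONT SCI + SWW for 9, of No SCI for 7 and of CONT SCI for 2. CONT SCI was lowest for 18, TX SCI for 15, No SCI for 9, CONT SCI + SWW for 6 and CONT SCI + SWIM for 3. Of the 6 comparisons between these groups, CONT SCI + SWW against CONT SCI held calls among the 51 genes by edgeR and the other 5 held 0.

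Most of the 51 genes had higher means in exercised than in other contused rats, and 2 passed the test with walking and 0 with swimming. In CONT SCI + SWW against CONT SCI, 2 of 51 genes were called higher and 0 lower by edgeR (0.759% of all genes called). At an unadjusted p under 0.05 there were 13 higher and 2 lower (15 in all, against 20.8% of all genes), and 38 of 51 fold changes were positive (74.5%, against 55.5% of all genes), with a median of 0.23 against 0.04. DESeq2 called 5. In CONT SCI + SWIM against CONT SCI, edgeR called 0 of 51 (0.008% of all genes). DESeq2 called 6 of the 51, of which 5 were higher, and 270 of all 12502 genes. At an unadjusted p under 0.05 there were 14 higher and 1 lower (13.1% of all genes), 44 of 51 fold changes were positive (86.3%, against 52.5% of all genes), and the median was 0.34 against 0.02. Both comparisons share the CONT SCI rats.

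Swimmers and walkers were not separated by the test. In CONT SCI + SWW against CONT SCI + SWIM, 0 of 51 genes were called by edgeR (0% of all genes) or by DESeq2, and 5, all lower in walkers, had an unadjusted p under 0.05 (5.43% of all genes). The median log2 fold change was -0.10 against 0.00 over all genes, and 35 of 51 were negative.

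Among rats without exercise, no gene of the 51 was called between injured and uninjured or between the 2 injuries by edgeR. CONT SCI against No SCI gave 0 calls among 51 genes by edgeR (0.00801% of all genes) and 0 by DESeq2, with 2 at an unadjusted p under 0.05 (4.49% of all genes). Here 37 of 51 fold changes were negative, with a median of -0.11. TX SCI against No SCI gave 0 calls by edgeR (0.0638% of all genes) and 3 by DESeq2 (291 of all 12530 genes). In this comparison 8 genes had an unadjusted p under 0.05 by edgeR (12.1% of all genes). The median of the 51 was 0.04 against 0.02 over all genes. It was -0.01 without TX SCI replicate 1 and -0.03 without No SCI replicate 2. TX SCI against CONT SCI gave 0 calls by edgeR (0.0321% of all genes) and 4 by DESeq2 (368 of all 12468 genes). There were 8 at an unadjusted p under 0.05 by edgeR (13.4% of all genes), and the median was 0.20 against 0.01.

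**Figure D4:**
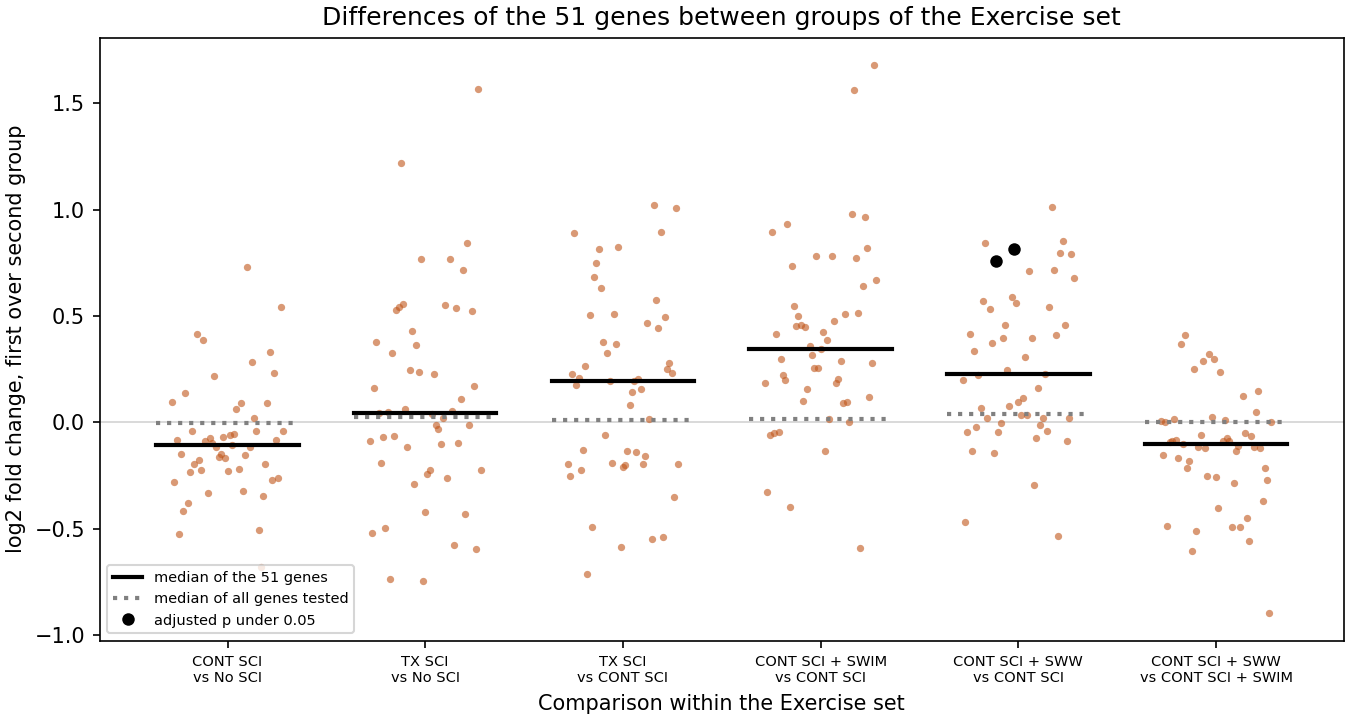
Log2 fold changes (vertical axis, first over second group) of the 51 genes in the 6 comparisons within the Exercise set (horizontal axis); each orange point is 1 gene, black points have an adjusted p under 0.05, black lines are medians of the 51 genes and grey dotted lines medians of all genes tested. The median of the 51 genes is highest for CONT SCI + SWIM against CONT SCI, at 0.34, and lowest for CONT SCI against No SCI, at -0.11.

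ENSRNOG00000057347, the gene with the highest Exercise mean, also had the largest single fitted fold change of the 51 genes over the 6 comparisons within the Exercise set together. This gene did not have the largest fold change in each of the 6. It stood at 64.0, 57.7, 62.9 and 59.0 CPM in No SCI, 72.9, 125, 64.5 and 92.5 in CONT SCI, 141, 185, 120 and 274 in TX SCI, 219, 391, 204, 236 and 365 in CONT SCI + SWIM, and 237, 129, 106, 148 and 140 in CONT SCI + SWW. Every uninjured rat was below every injured one, but No SCI replicate 1 (64.0 CPM) and CONT SCI replicate 3 (64.5 CPM) nearly met. Every swimmer was above every contused rat that did not exercise. Within the In-Cage set the No SCI + Standard rats were at 0.925, 0.714, 0.939, 0.531 and 0.248 CPM, the CONT SCI + Tiny rats at 1.33, 0.580, 2.43, 0.578 and 2.58, and the CONT SCI + Large rats at 0.369, 2.86, 1.35, 7.42 and 0.499, with overlap between injured and uninjured rats.

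Fitted on the 2 groups compared with all their rats and the filter on low counts, no difference of ENSRNOG00000057347 within the Exercise set passed an adjusted p of 0.05 by edgeR. For CONT SCI + SWIM over CONT SCI the log2 fold change was 1.68 (standard error 0.26, edgeR adjusted p = 0.0818), and for TX SCI over No SCI it was 1.57 (standard error 0.24, edgeR adjusted p = 0.0611). Over the alternatives these adjusted p ranged from 1.14e-07 to 0.283 and from 7.93e-07 to 0.230, the lowest being DESeq2's. In edgeR fits over all groups of the set, these differences passed, with adjusted p of 0.0167 and 0.00855. For TX SCI over No SCI, edgeR's adjusted p was also 0.0237 without the filter and 0.0428 without TX SCI replicate 4. TX SCI over CONT SCI gave 1.01 (standard error 0.28, edgeR adjusted p = 0.185), CONT SCI + SWW over CONT SCI 0.79 (standard error 0.25, edgeR adjusted p = 0.115) and CONT SCI over No SCI 0.54 (standard error 0.19, edgeR adjusted p = 0.936). The walkers were lower than the swimmers by a log2 fold change of -0.90 (standard error 0.24, edgeR adjusted p = 0.782), with replicate 1 of CONT SCI + SWW inside the swimmers' range.

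ENSRNOG00000030721 was called in CONT SCI + SWW against CONT SCI. It was narrow in the rats without exercise or transection, at 8.18, 8.70, 8.31 and 8.99 CPM in No SCI and 8.19, 8.69, 8.16 and 7.70 in CONT SCI. In the others it was at 15.9, 18.1, 15.0 and 9.21 CPM in TX SCI, 13.7, 15.3, 14.5, 12.5 and 14.04 in CONT SCI + SWIM, and 11.3, 14.2, 15.3, 15.4 and 14.7 in CONT SCI + SWW. All 14 rats of these 3 groups were above all 8 of the first 2, with TX SCI replicate 4 closest to them. The log2 fold change over CONT SCI was 0.81 for CONT SCI + SWW (standard error 0.12, edgeR adjusted p = 0.0268), 0.78 for CONT SCI + SWIM (standard error 0.11, edgeR adjusted p = 0.0749) and 0.82 for TX SCI (standard error 0.20, edgeR adjusted p = 0.159). The call in walkers was kept in 3 of 9 fits without 1 library, and over all alternatives its adjusted p ranged from 7.44e-07 to 0.0884. In the In-Cage set this gene ranged from 0.694 to 3.76 CPM, with a log2 fold change of 0.99 for CONT SCI + Tiny over No SCI + Standard (standard error 0.32, edgeR adjusted p = 0.0554).

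The other gene called in walkers, ENSRNOG00000018987, was at 6.53, 9.49, 6.68 and 5.86 CPM in No SCI, 7.13, 7.60, 5.58 and 6.67 in CONT SCI, 14.9, 8.78, 13.3 and 5.08 in TX SCI, 8.48, 13.3, 6.45, 12.4 and 6.80 in CONT SCI + SWIM, and 9.07, 11.1, 13.6, 12.9 and 9.73 in CONT SCI + SWW. Every walker was above every rat of CONT SCI, while swimmers and rats with a transection overlapped with CONT SCI. The log2 fold change of CONT SCI + SWW over CONT SCI was 0.76 (standard error 0.15, edgeR adjusted p = 0.0458), kept in 2 of 9 fits without 1 library, with a range of adjusted p from 0.00101 to 0.210 over all alternatives. Its In-Cage means were 1.91 ± 0.186 CPM for No SCI + Standard, 1.64 ± 0.153 for CONT SCI + Tiny and 1.52 ± 0.611 for CONT SCI + Large (SD, n = 5 each), and it was one of 3 genes with their highest In-Cage mean in the uninjured rats.

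**Figure D5:**
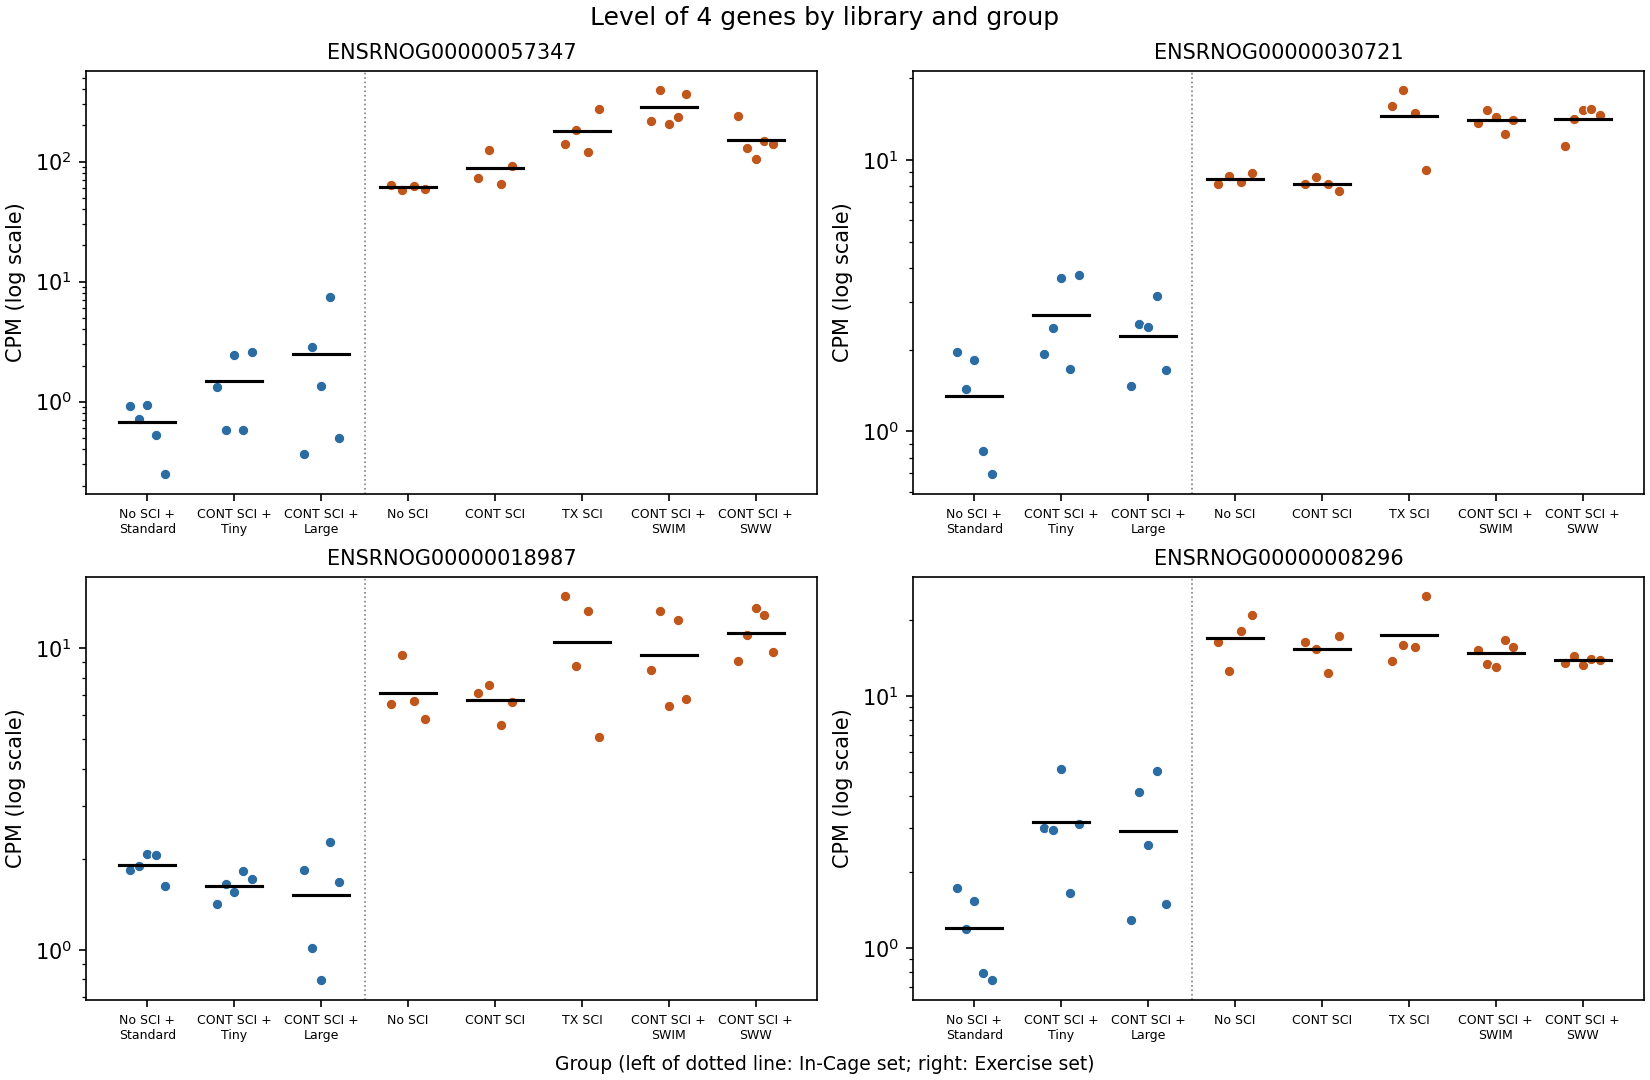
CPM (vertical axes, log scale) of the gene with the highest Exercise mean and of the 3 genes called in a comparison within a set, in each library by group (horizontal axes), with In-Cage groups in blue and Exercise groups in orange; each point is 1 library and each black line a group mean. ENSRNOG00000030721 is between 7.70 and 8.99 CPM in the No SCI and CONT SCI rats of the Exercise set and between 9.21 and 18.1 CPM in the other 3 Exercise groups.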

How the data were processed

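Poly(A) RNA of 37 rat livers was sequenced as single-end reads. The authors aligned the reads to Rn6 with STAR, counted them on Ensembl genes with HTSeq, left out mitochondrial genes, and deposited raw counts per gene and sample without normalization. All 37 columns were used and grouped by the sample labels. CPM were computed with TMM factors from the 13153 genes kept by filterByExpr over the 8 groups. Groups within a set were compared in 9 fits, each on its own samples, with edgeR 4.0.16 in R 4.3.3 (robust glmQLFit and glmQLFTest, filterByExpr at min.count 10 and min.total.count 15), and p-values were adjusted by Benjamini-Hochberg over all genes tested. Standard errors were derived as the absolute log2 fold change over the root of F. DESeq2 1.42.0, RLE, no filter, one fit over all groups of a set, a block for the replicate number and leaving out each library were the alternatives. The block fit used only replicate numbers found in both groups. Scripts were tested on simulated data. Pairs of libraries of one condition (68) differed by more than sampling noise (lowest reduced chi-square 31.0). Genes named in the text were those with the largest and smallest ratios between sets, the highest Exercise means, the widest Exercise ranges, or a call, and within these classes only the first were printed, since no names were at hand. The member genes and gene lists were chosen with earlier results of these data known. Alternatives for the summed CPM, the near-absent share, the In-Cage order and single fold changes were added after seeing the data.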

Additional observations from a re-analysis of the deposited data

Results flagged for a closer look

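Of 107 sets of 4 or 5 libraries of one group, formed for a part of the 51 genes, 6 held a library far from the others. This is close to the rate of about 1 in 20 that chance gives. ENSRNOG00000012877 was at 0.814 CPM in CONT SCI replicate 4, against 0.318 to 0.392 in the other 3 rats. ENSRNOG00000039876 was at 37.5 CPM in CONT SCI replicate 1, against 28.9 to 30.003. ENSRNOG00000004757 was at 1.28 CPM in TX SCI replicate 1, against 0.420 to 0.536. In the In-Cage set, the 3 libraries concerned held the only counts of the gene within their group of 5. With all other values at 0 the gap is the largest possible, so the rate of 1 in 20 does not apply to these 3. ENSRNOG00000046560 was at 0.0578 CPM in No SCI + Standard replicate 1. ENSRNOG00000050108 was at 0.0433 CPM in CONT SCI + Tiny replicate 3 and at 0.0439 CPM in CONT SCI + Large replicate 4, each from 1 read.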

How the results depend on the processing

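The number of genes taken by the rule was 100 with a ratio of 1.5 and 30 with a ratio of 3, and stayed within 1.5 times 51 under the other settings (35 to 59), while leaving out 1 library gave 49 (without CONT SCI + SWIM replicate 2) to 76 (without CONT SCI + Large replicate 4). For the genes called in CONT SCI + Tiny against No SCI + Standard, DESeq2 gave 3, and leaving out 1 library 0 (CONT SCI + Tiny replicate 1, 3 or 5, No SCI + Standard replicate 4 or 5) to 4 (CONT SCI + Tiny replicate 4 or No SCI + Standard replicate 3, and 3 without No SCI + Standard replicate 1). In CONT SCI + Large against No SCI + Standard, DESeq2 gave 4 and one fit over the set 1 (935 of all 12119 genes). Leaving out 1 library gave 0 to 8 (without CONT SCI + Large replicate 1). In TX SCI against No SCI, DESeq2 gave 3, one fit 3 (268 of all 13059 genes) and no filter 1 (12 of 17683). In TX SCI against CONT SCI, DESeq2 gave 4 and one fit 2 (135 of all 13059 genes). Both comparisons ranged from 0 to 1 without 1 library, with 1 without TX SCI replicate 4. In CONT SCI + SWIM against CONT SCI, DESeq2 gave 6 and one fit 2 (10 of all 13059 genes), with 0 for each library left out. In CONT SCI + SWW against CONT SCI, DESeq2 gave 5, one fit 1, and leaving out 1 library 0 (any CONT SCI rat, CONT SCI + SWW replicate 2 or 3) to 3 (CONT SCI + SWW replicate 1 or 5), with 1 without CONT SCI + SWW replicate 4. The remaining 3 comparisons gave 0 whichever library was left out. Calls over all genes moved as well when 1 library was left out. For CONT SCI + Tiny against No SCI + Standard they ran from 15 (No SCI + Standard replicate 4) to 2998 (No SCI + Standard replicate 1). For CONT SCI + Large against No SCI + Standard they ran from 0 to 2020. For CONT SCI + SWW against CONT SCI they ran from 0 to 533, and one fit called 20. The cause of these changes was not tested. Fold changes of the 3 genes called and of ENSRNOG00000057347 kept their side of the threshold in 44 recomputations under other settings, passed it in 14 and lost it in 2, and without 1 library these numbers were 85, 2 and 18. The fold changes of these 4 genes kept their direction throughout. The median over those of the 51 genes that were tested changed sign without 1 library in CONT SCI + Large against CONT SCI + Tiny (0.20 to -0.07 without CONT SCI + Large replicate 4) and in TX SCI against No SCI (0.04 to -0.01 without TX SCI replicate 1 and -0.03 without No SCI replicate 2).

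Replicate numbers were shared between groups, but the deviations of same-numbered rats correlated between -0.494 and 0.466. In none of the 9 comparisons was every pair over 0.1, so no pairing by number was seen, which does not exclude one. With the replicate number as a block, 2 genes were called in CONT SCI + Tiny against No SCI + Standard (1670 of all 11859 genes). In CONT SCI + SWIM against CONT SCI, 1 was called (ENSRNOG00000057347, edgeR adjusted p = 0.00458, 7 of all 12454 genes). In CONT SCI + SWW against CONT SCI, 1 was called (87 of all 12557 genes). The fits of swimmers and of walkers left out replicate 5, which had no counterpart in CONT SCI, and so held 4 rats per group. The filter on low counts left out 30 to 34 of the 51 genes in the In-Cage comparisons. Without it 48 or 49 were tested, with 1 called in CONT SCI + Tiny against No SCI + Standard (1362 of all 17181 genes) and 0 in the other 2.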
